A study of Mus musculus with 8 samples.

Results

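Zfp36, Zfp36l1, Zfp36l2, Zc3h12a, Rc3h1, Btg1, Btg2, Tob1 and Tob2 encode proteins that shorten the life of messenger RNA or restrain cell division, and their transcripts were followed in activated mouse CD4 T cells. The 9 genes were chosen by name, with earlier results of these data known, as 9 of 18193 named genes on the array. All 21 probe sets annotated to one of these symbols alone were used, of 45101 probe sets in all. A probe set is a group of short probes that together report 1 transcript. For each gene the main probe set is the one with the highest mean over the 8 arrays, and the other sets are given beside it.

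Gene expression was measured on 8 Affymetrix arrays, with 2 arrays in each of 4 groups. The groups were KO cells with db-cAMP, KO cells with vehicle, WT cells with db-cAMP and WT cells with vehicle. All cells were splenic CD4 T cells of mice aged 8 weeks, isolated on magnetic columns, and all were activated for 15 h with antibodies to CD3 and CD28. db-cAMP (dibutyryl cyclic AMP), which enters cells and acts like the second messenger cyclic AMP, or vehicle was present for the last 3 h. KO mice lacked the interferon-gamma receptor chain IFN-gR1, which passes on the interferon-gamma signal, and WT mice had it. The sources used here do not name the KO allele. Titles call the arrays of a group biological replicates without saying whether different animals or cultures were used, so the p-values cover the spread between the samples at hand, which may be technical.

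Titles, source names and genotype entries place 4 arrays in the KO groups, whereas the free-text descriptions of the same arrays name WT cells, and the titles were followed. Ifngr1, the gene the KO mice lack, gave signals of 1056 and 1272 in KO cells with db-cAMP, 439.2 and 377.7 in KO cells with vehicle, 7319 and 8201 in WT cells with db-cAMP, and 905.2 and 873.5 in WT cells with vehicle. It was lower in KO cells under both treatments, and it is not known here whether its probes lie in the deleted part. Gbp2, a guanylate-binding protein induced by interferon-gamma, stayed at or under 678.4 on the 4 KO arrays and was at or above 6960 on the 4 WT arrays. The Crem transcript, a classical target of cyclic AMP signalling, averaged 5654 with db-cAMP and 991.2 with vehicle in KO cells, and 20599 and 1289 in WT cells. Pde4d, a phosphodiesterase that breaks down cyclic AMP, averaged 1899 and 296 in KO cells, and 3669 and 271.6 in WT cells. The list for CD4 T cells had 7 genes on the array, namely Cd3e, Cd3g, Cd3d, Cd247, Cd4, Cd5 and Cd28. Apart from Cd4 these are general T cell genes. All 7 lay above the array median on all 8 arrays, as did both CD8 T cell markers. So did 0 of 6 dendritic cell, 1 of 9 macrophage and neutrophil, 1 of 5 erythroid and platelet, 2 of 7 B cell and 2 of 4 NK cell markers. The summed NK cell marker signal was 1341 to 1455 with db-cAMP against 761.6 to 841.1 with vehicle in KO cells, and 1684 to 1882 against 730.5 to 884 in WT cells. Of these 4 markers 2 were tested. Klrd1 passed limma's test with db-cAMP in both genotypes (1.18 in KO cells, 0.83 in WT cells, adjusted p = 0.000258 and 0.000719). Eomes had 0.27 in KO cells (adjusted p = 0.446) and 1.59 in WT cells (adjusted p = 9.04e-06). Without Klrd1 the NK cell sum was 409.8 to 527.4 against 382.4 to 405.4 in KO cells, and 873.6 to 1122 against 351.4 to 374.7 in WT cells. Summed B cell marker signal was 7605 to 8592 against 8627 to 9406 in KO cells, and 5373 to 5948 against 10050 to 11370 in WT cells. Ighm, an immunoglobulin heavy chain, made up 84.9% to 95.3% of that sum. Without it the B cell sum was 404.2 to 449.8 with db-cAMP against 486.1 to 515.1 with vehicle in KO cells, and 669.9 to 809.3 against 600.1 to 601.2 in WT cells. Ighm fell with db-cAMP in WT cells (-1.04, adjusted p = 1.85e-06), where the other 5 tested B cell markers had changes of 0.08 to 0.67 and none passed. Under db-cAMP Ighm was higher in KO than in WT cells (0.64, adjusted p = 0.000225), whereas Cd79b (-1.28, adjusted p = 0.0288) and Ms4a1 (-0.76, adjusted p = 0.0345) were lower. The summed signal of Cd8a and Cd8b1 was at most 335.3 on KO arrays and at least 366.6 on WT arrays. By limma, Cd8b1 was lower in KO than in WT cells under db-cAMP (-0.89, adjusted p = 0.00514) and vehicle (-0.92, adjusted p = 0.0121). Cd8a passed under neither (0.03 and -0.22, adjusted p = 0.948 and 0.743). Poly-A spike-in controls, added to the RNA before labelling, averaged 4563 to 6375 on KO arrays and 1612 to 2443 on WT arrays. Hybridization controls averaged 16370 to 18020 on KO arrays and 20610 to 31560 on WT arrays. The ratio of 3-prime to 5-prime signal, a sign of RNA quality and labelling, was 1.344 to 1.444 on KO arrays and 1.461 to 1.724 on WT arrays for Actb. It was 0.7789 to 0.8502 and 0.7337 to 0.7692 for Gapdh, and 0.5129 to 0.6225 and 0.3528 to 0.4412 for 18S ribosomal RNA, so no KO array overlapped a WT array in any of these controls. The 18S signal was 31400 to 38700 with db-cAMP and 24550 to 28570 with vehicle. The part of these markers and controls in the results below was not tested, and these control differences and genotype cannot be told apart.

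Most messenger RNAs decay after their poly(A) tail is shortened by the CCR4-NOT deadenylase. ZFP36 proteins bind AU-rich elements in cytokine and growth-related transcripts and bring this complex to them, whereas regnase-1 cuts stem-loops and roquin binds them to bring in deadenylases. BTG and TOB proteins bind the catalytic deadenylase subunits directly and can speed up tail shortening more generally. In mouse T cells these proteins restrain cytokine output, and Btg1 with Btg2 help to hold naive T cells at rest.

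RefSeq promoter windows, 250 bases before to 50 after each gene's start in build GRCm38.p6, were matched for 8 of the 9 genes. They were searched on both strands for the cAMP response element (CRE) TGACGTCA, to which CREB binds, and for its shorter form TGACG. The 250 bases before the start are shown for Btg2, Tob1 and Btg1, whose db-cAMP calls are described below and whose windows held a match before the start, 5′ to 3′ on the gene's strand, with matches in capitals, and matches of the shorter form on the other strand read CGTCA.
Btg2, chr1:134079156-134079405, minus strand: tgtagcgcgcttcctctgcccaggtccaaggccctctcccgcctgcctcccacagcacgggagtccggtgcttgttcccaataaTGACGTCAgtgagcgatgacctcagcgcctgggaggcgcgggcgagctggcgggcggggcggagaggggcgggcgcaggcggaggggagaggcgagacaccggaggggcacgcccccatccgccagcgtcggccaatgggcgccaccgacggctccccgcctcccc
Tob1, chr11:94211204-94211453, plus strand: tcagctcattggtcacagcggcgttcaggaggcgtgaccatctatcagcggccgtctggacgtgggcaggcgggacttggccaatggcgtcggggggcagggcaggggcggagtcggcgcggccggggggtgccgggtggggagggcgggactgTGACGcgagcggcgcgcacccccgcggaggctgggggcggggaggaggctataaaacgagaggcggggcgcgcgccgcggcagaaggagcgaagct
Btg1, chr10:96616751-96617000, plus strand: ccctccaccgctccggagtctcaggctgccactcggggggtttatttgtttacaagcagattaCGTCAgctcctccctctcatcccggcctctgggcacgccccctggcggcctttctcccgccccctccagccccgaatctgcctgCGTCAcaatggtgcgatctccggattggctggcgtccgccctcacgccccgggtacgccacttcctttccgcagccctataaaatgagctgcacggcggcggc

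The Btg2 promoter held a full CRE at positions -166 to -159 from the start, which 588 of 32851 mouse promoters (1.79%) also hold. The Tob1 promoter held the shorter form at -96 to -92. The Btg1 promoter held it on the other strand at -187 to -183 and at -103 to -99. Of all promoters 20.8% hold at least 1 shorter form and 5.01% hold 2 or more, those inside a full CRE included. Zc3h12a had a shorter form at 6 to 10, after the start. The windows of Zfp36, Zfp36l1, Rc3h1 and Tob2 held no match to these letters. A match describes letters in a window and is not a measured binding site.

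**Figure D1:**
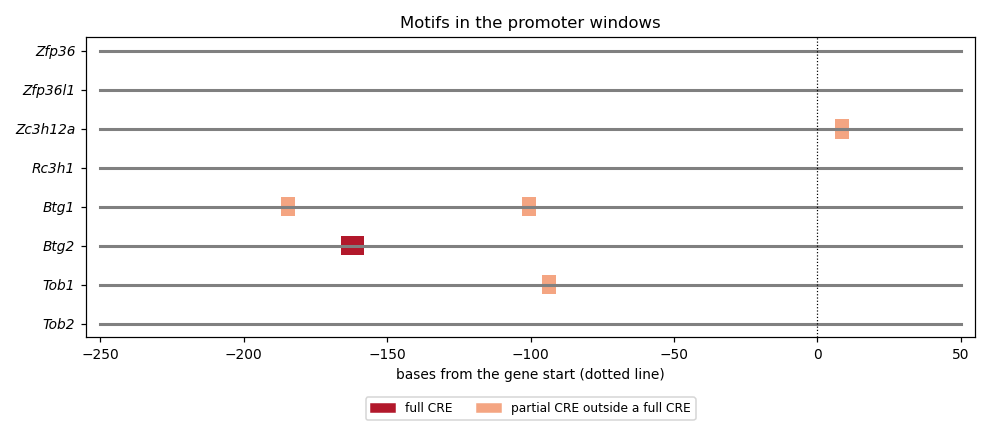
Motif matches in the promoter windows of 8 genes, drawn by distance in bases from the gene start (dotted line), with the full CRE in red and the shorter form in orange. Btg2 alone among the 8 holds a full CRE, at -166 to -159, and Btg1 holds 2 of the shorter form.

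Tob1, Btg2 and Zfp36 rose with db-cAMP in both genotypes, and Btg1 rose by a small amount in WT cells. Values are MAS5 signals, a linear brightness scaled per array, and changes are log2 differences with the standard error of the fit. Each test is limma's, fitted over all genes, and rose or fell is written where the Benjamini-Hochberg adjusted p was under 0.05. In KO cells 3 of the 9 rose and 0 fell, where 4.70% of the 12091 genes tested rose and 3.68% fell. In WT cells 4 of the 9 rose and 0 fell, where 16.4% of all genes tested rose and 18.6% fell. At an unadjusted p under 0.05 limma counted 6 higher and 0 lower in KO cells, where 10.6% and 9.92% of all genes were, and 4 higher and 1 lower in WT cells, where 20.5% and 22.2% were. The median change of the 9 was 0.19 in KO cells and 0.17 in WT cells, against -0.004 and 0.013 over all genes tested. Without limma's intensity trend Tob1 alone kept its call in KO cells, and Zfp36, Btg2 and Tob1 kept theirs in WT cells. Fewer of all genes were called in KO cells in that setting too, as given in the last section. In RNA of whole cultures, a change in the share of cells that carry a transcript and a change in its amount per cell cannot be told apart.

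**Figure D2:**
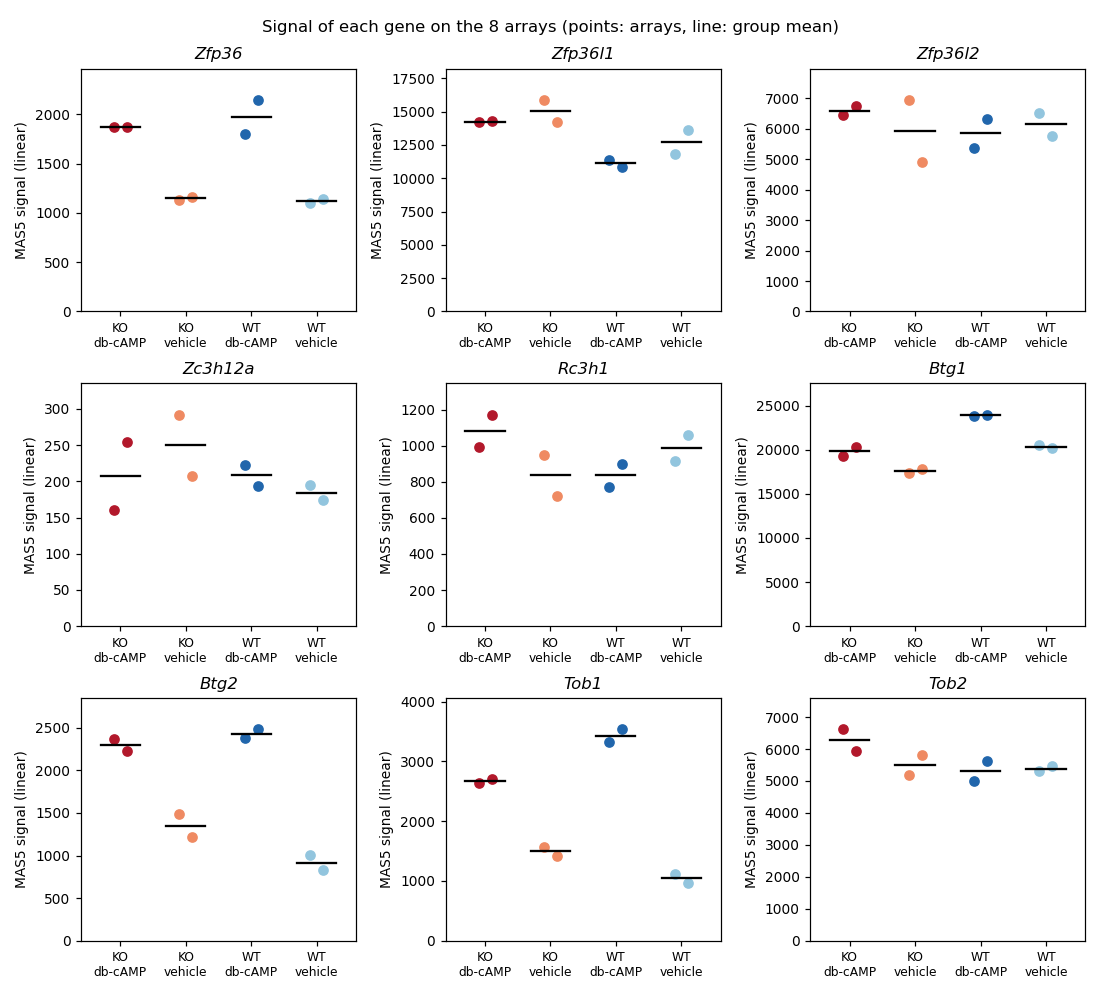
MAS5 signal (linear) of the main probe set of each gene, with 1 point per array and a line at the mean of the 2 arrays of a group. Tob1, Btg2 and Zfp36 lie higher on every db-cAMP array than on any vehicle array, whereas the Zfp36l2 and Zc3h12a points of the 2 treatments overlap within each genotype.

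Zfp36, also called tristetraprolin, is the immediate-early member of the family and binds the AU-rich elements of Tnf and Il2 messenger RNA. Its single probe set gave 1874 and 1867 in KO cells with db-cAMP, 1131 and 1164 in KO cells with vehicle, 1804 and 2143 in WT cells with db-cAMP, and 1104 and 1145 in WT cells with vehicle. All 4 db-cAMP arrays lay above all 4 vehicle arrays, and within a treatment the genotypes lay close together. The db-cAMP change was 0.70 ± 0.10 in KO cells (1.63-fold, adjusted p = 0.000554) and 0.80 ± 0.10 in WT cells (1.75-fold, adjusted p = 2.61e-05). The KO call had an adjusted p of 0.0533 without the intensity trend. KO and WT cells did not differ past the threshold under db-cAMP (-0.07, 95% interval -0.29 to 0.14, adjusted p = 0.651) or vehicle (0.03, interval -0.19 to 0.24, adjusted p = 0.916). The difference between the db-cAMP effects, KO minus WT, was -0.10 with an interval of -0.41 to 0.20 and an adjusted p of 0.736.

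Zfp36l1, a relative that restrains the cell cycle of developing lymphocytes together with Zfp36l2, gave 14199 and 14321 in KO cells with db-cAMP, 15857 and 14260 in KO cells with vehicle, 11396 and 10845 in WT cells with db-cAMP, and 11806 and 13643 in WT cells with vehicle. Every KO array lay above every WT array. KO exceeded WT under db-cAMP by 0.36 ± 0.08 (1.28-fold, adjusted p = 0.0044, or 0.0769 without the intensity trend), and the difference of 0.24 ± 0.08 under vehicle did not pass (adjusted p = 0.0768). That vehicle difference passed without the second WT vehicle array (0.35, adjusted p = 0.0384), under quantile normalization (0.43, adjusted p = 0.00435), with equal medians (0.32, adjusted p = 0.0462) and with both probe sets averaged (0.59, adjusted p = 0.00712). The db-cAMP changes of -0.08 in KO cells and -0.19 in WT cells did not pass (adjusted p = 0.693 and 0.0892), though the WT one did without the first WT vehicle array (-0.30, adjusted p = 0.0266), with equal medians (-0.36, adjusted p = 0.00466) and under quantile normalization (-0.24, adjusted p = 0.0332).

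The second Zfp36l1 probe set, 1422528_a_at, separated the genotypes further. It gave 4059 and 4035 in KO cells with db-cAMP, 4403 and 3320 in KO cells with vehicle, 2017 and 1789 in WT cells with db-cAMP, and 1860 and 2147 in WT cells with vehicle. The KO difference was 1.09 ± 0.12 under db-cAMP (adjusted p = 3.12e-05 over all probe sets) and 0.93 ± 0.12 under vehicle (adjusted p = 0.000306). Its db-cAMP changes were 0.08 in KO cells and -0.07 in WT cells, neither past the threshold. Both probe sets thus placed KO above WT, by different amounts, and which transcript forms each set reports was not examined.

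Zfp36l2, which with Zfp36l1 guards thymocyte development, gave 6435 and 6730 in KO cells with db-cAMP, 6931 and 4892 in KO cells with vehicle, 5363 and 6328 in WT cells with db-cAMP, and 6521 and 5774 in WT cells with vehicle. The groups overlapped, except that both db-cAMP arrays of KO cells exceeded both db-cAMP arrays of WT cells. Its 5 contrasts lay between -0.08 and 0.25 with adjusted p-values of 0.369 to 0.813. The 95% interval of the db-cAMP change was -0.11 to 0.46 in KO cells and -0.36 to 0.21 in WT cells. Its other probe sets were dim, above the array median on 5 arrays (1451034_at) and 2 arrays (1439054_at), and passed no test. With the 3 sets averaged, which takes in the dim values, its interaction passed (1.35, adjusted p = 0.0247). Taken singly, the interaction was 0.25 in the main set, 1.16 in 1451034_at and 2.63 in 1439054_at, and none passed. The averaged value thus rests mostly on the dim sets and its size is not well measured.

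Zc3h12a encodes regnase-1, an endoribonuclease that degrades Il6, Icos and Rel transcripts and is itself cleaved after T cell receptor signalling. Its main probe set gave 160.0 and 254.2 in KO cells with db-cAMP, 291.9 and 207.3 in KO cells with vehicle, 222.6 and 194.2 in WT cells with db-cAMP, and 194.3 and 173.8 in WT cells with vehicle. Arrays of the 2 treatments overlapped in KO cells, and in WT cells the lower db-cAMP array lay just below the higher vehicle array. The db-cAMP change was -0.28 in KO cells (95% interval -0.86 to 0.30, adjusted p = 0.65) and 0.17 in WT cells (interval -0.41 to 0.75, adjusted p = 0.673). The second probe set, 1443993_at, above the array median on 6 arrays, gave 99.8 and 112.6 in KO cells with db-cAMP, 80.2 and 105.5 in KO cells with vehicle, 104.1 and 112.6 in WT cells with db-cAMP, and 47.8 and 12.9 in WT cells with vehicle. It passed with db-cAMP in WT cells (1.86 ± 0.52, adjusted p = 0.0162) and not in KO cells (0.19, adjusted p = 0.913). Both WT vehicle arrays lay below their array medians of 56.2 and 63.8, so the size of the WT change is not well measured, and with those 2 arrays set to their medians, a setting chosen after seeing the data, it was 0.80. The difference between these 2 effects did not pass (-1.67, adjusted p = 0.223). The mean of both probe sets, which takes in the same dim values, passed in WT cells (1.02, adjusted p = 0.0365).

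Rc3h1 encodes roquin-1, which binds stem-loops in Icos and Tnf transcripts. Its single probe set gave 992.1 and 1171 in KO cells with db-cAMP, 950.0 and 720.4 in KO cells with vehicle, 773.7 and 900.9 in WT cells with db-cAMP, and 916.1 and 1061 in WT cells with vehicle. The db-cAMP arrays lay above the vehicle arrays in KO cells and below them in WT cells, and neither change passed. The change was 0.38 in KO cells (95% interval 0.06 to 0.70, adjusted p = 0.154) and -0.24 in WT cells (interval -0.56 to 0.08, adjusted p = 0.247). The difference between these effects was 0.62 ± 0.21 (interval 0.17 to 1.07, adjusted p = 0.0783), and it passed without the first KO vehicle array (0.82, adjusted p = 0.033). KO minus WT was 0.37 under db-cAMP (adjusted p = 0.0831, or 0.0175 with equal medians, where it was 0.54) and -0.25 under vehicle (adjusted p = 0.35). The close relatives did not pass with db-cAMP either. Rc3h2, roquin-2, had a change of 0.27 in KO cells and 0.07 in WT cells (adjusted p = 0.283 and 0.73). Zc3h12d, another regnase, had 0.18 and -0.09 (adjusted p = 0.281 and 0.49).

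Tob1, which restrains T cell proliferation in human cells and links the deadenylase to poly(A)-binding protein, had the largest db-cAMP change of the 9 main probe sets in both genotypes. Its main probe set gave 2634 and 2702 in KO cells with db-cAMP, 1567 and 1425 in KO cells with vehicle, 3327 and 3536 in WT cells with db-cAMP, and 1117 and 972.9 in WT cells with vehicle. The 4 groups did not overlap, and the 2 KO groups lay between the 2 WT groups. The change was 0.83 ± 0.09 in KO cells (1.78-fold, adjusted p = 9.6e-05) and 1.71 ± 0.09 in WT cells (3.28-fold, adjusted p = 1.39e-08), where it ranked 312 among rises of all genes. The effect was smaller in KO cells, and the interaction (KO effect less WT effect) was -0.88 ± 0.13 (adjusted p = 0.000948). This difference had an adjusted p of 0.0595 without the intensity trend.

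KO exceeded WT for Tob1 under vehicle by 0.52 ± 0.09 (adjusted p = 0.00339, or 0.0905 without the intensity trend), and KO was lower than WT under db-cAMP, at -0.36 ± 0.09 (adjusted p = 0.0106). The second of these did not pass with equal medians (-0.19, adjusted p = 0.365), without the intensity trend (adjusted p = 0.0721), or without the first KO db-cAMP array (-0.34, adjusted p = 0.0738), the second KO db-cAMP array (-0.38, adjusted p = 0.0504) or the second WT db-cAMP array (-0.32, adjusted p = 0.0758). Another Tob1 probe set, 1440844_at, was above the median on 0 arrays, with signals of 4.23 to 49.4, and was not tested. Averaging it with the main set lowered the db-cAMP change to 0.49 in KO cells and 0.67 in WT cells, and no Tob1 call then passed (adjusted p = 0.541 and 0.177 for these). KO minus WT under db-cAMP was then 0.49 (adjusted p = 0.353).

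Btg2, an antiproliferative gene that is also a p53 target, gave 2368 and 2228 in KO cells with db-cAMP, 1484 and 1217 in KO cells with vehicle, 2381 and 2480 in WT cells with db-cAMP, and 1001 and 834.1 in WT cells with vehicle. All db-cAMP arrays lay above all vehicle arrays, and KO vehicle arrays lay above WT vehicle arrays. The change was 0.77 ± 0.12 in KO cells (1.71-fold, adjusted p = 0.000812, or 0.081 without the intensity trend) and 1.41 ± 0.12 in WT cells (2.65-fold, adjusted p = 5.6e-07). KO exceeded WT under vehicle by 0.55 ± 0.12 (adjusted p = 0.00766), and the 2 genotypes did not differ past the threshold under db-cAMP (-0.08, 95% interval -0.33 to 0.17, adjusted p = 0.659). The vehicle difference did not pass without the intensity trend (adjusted p = 0.128), without the first KO vehicle array (0.41, adjusted p = 0.0916), without the second WT vehicle array (0.42, adjusted p = 0.0743) or with probe sets averaged (0.32, adjusted p = 0.067). Averaged sets had KO below WT under db-cAMP (-0.44, adjusted p = 0.00645).

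The db-cAMP effect on Btg2 was smaller in KO cells, with an interaction of -0.63 ± 0.16 (adjusted p = 0.0225). This call was lost in 7 of 20 alternatives, with adjusted p-values up to 0.165. They were equal medians (-0.53, adjusted p = 0.157), no intensity trend, and leaving out either KO db-cAMP array, the first KO vehicle array, the second WT db-cAMP array or the second WT vehicle array (adjusted p = 0.055 to 0.0919).

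The other Btg2 probe set, 1448272_at, gave 757.8 and 976.6 in KO cells with db-cAMP, 598.2 and 636.8 in KO cells with vehicle, 1582 and 1431 in WT cells with db-cAMP, and 528.6 and 641.8 in WT cells with vehicle. It rose with db-cAMP in WT cells by 1.36 ± 0.14 (adjusted p = 1.16e-05), and its change of 0.48 ± 0.14 in KO cells did not pass (adjusted p = 0.0827). The interaction was -0.89 ± 0.20 (adjusted p = 0.0185). The 2 Btg2 sets thus placed the genotype difference in different treatments: KO minus WT in the second set was -0.80 ± 0.14 under db-cAMP (adjusted p = 0.00115) and 0.08 under vehicle, which did not pass (adjusted p = 0.811).

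**Figure D3:**
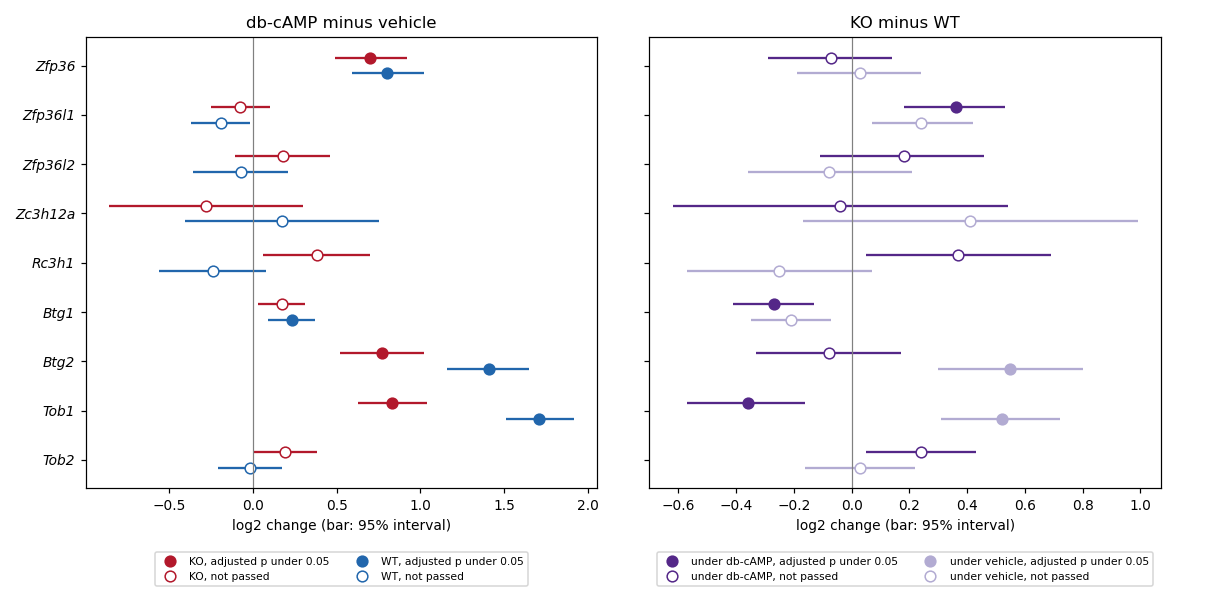
Log2 change of the 9 genes with 95% intervals, for db-cAMP minus vehicle in KO and WT cells (left) and KO minus WT under db-cAMP and vehicle (right), with filled points at an adjusted p under 0.05. Tob1 (0.83 in KO cells, 1.71 in WT cells) and Btg2 (0.77 and 1.41) lie further right in WT cells, and Zfp36 (0.70 and 0.80) overlaps between genotypes.

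Btg1, the partner of Btg2 in keeping T cells at rest, gave 19303 and 20304 in KO cells with db-cAMP, 17372 and 17840 in KO cells with vehicle, 23864 and 23957 in WT cells with db-cAMP, and 20519 and 20214 in WT cells with vehicle. The db-cAMP arrays lay above the vehicle arrays within each genotype, and KO arrays below WT arrays within each treatment. The db-cAMP change was 0.17 ± 0.06 in KO cells, which did not pass (adjusted p = 0.138), and 0.23 ± 0.06 in WT cells (1.17-fold, adjusted p = 0.0118). The interaction did not pass (-0.06, adjusted p = 0.745). The WT call did not pass under quantile normalization (0.09, adjusted p = 0.242), with equal medians (0.06, adjusted p = 0.666), with probe sets averaged (0.11, adjusted p = 0.26), without the intensity trend (adjusted p = 0.0844) or without the second WT vehicle array (0.22, adjusted p = 0.0586). KO was lower than WT under db-cAMP, at -0.27 ± 0.06 (adjusted p = 0.00537), but the sign turned under quantile normalization (0.04, adjusted p = 0.638) and with probe sets averaged (0.28, adjusted p = 0.0162). That call was also lost with equal medians (-0.10, adjusted p = 0.47), without the intensity trend (adjusted p = 0.065) and without the first KO db-cAMP array (-0.24, adjusted p = 0.0723). Under vehicle KO minus WT was -0.21 (adjusted p = 0.0523), which passed with equal 75th percentiles (-0.30, adjusted p = 0.0091), a stricter filter of 4 arrays (adjusted p = 0.049) and every probe set tested (adjusted p = 0.0484), and turned sign under quantile normalization (0.02).

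The 3 Btg1 probe sets disagreed on genotype, and the part of the 3-prime to 5-prime ratios, which differ by genotype, was not tested. The second set, 1437455_a_at, gave 14297 and 15035 in KO cells with db-cAMP, 11971 and 12527 in KO cells with vehicle, 14936 and 16011 in WT cells with db-cAMP, and 12769 and 14350 in WT cells with vehicle, and passed no test. The third set, 1442018_at, gave 547.9 and 577.3 in KO cells with db-cAMP, 550.2 and 416.4 in KO cells with vehicle, 239.2 and 252.5 in WT cells with db-cAMP, and 252.8 and 267.4 in WT cells with vehicle. It had KO above WT by 1.18 ± 0.17 under db-cAMP (adjusted p = 0.000272) and 0.87 ± 0.17 under vehicle (adjusted p = 0.00602), the opposite sign to the main set.

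Tob2, the close relative of Tob1, gave 6613 and 5939 in KO cells with db-cAMP, 5202 and 5804 in KO cells with vehicle, 5006 and 5625 in WT cells with db-cAMP, and 5305 and 5463 in WT cells with vehicle. Its main set, 1448667_x_at, is of a kind whose probes may also bind other transcripts. KO cells with db-cAMP had the 2 highest arrays, and the other groups overlapped. The db-cAMP change was 0.19 in KO cells (adjusted p = 0.233) and -0.02 in WT cells (95% interval -0.21 to 0.17, adjusted p = 0.884). KO minus WT under db-cAMP was 0.24 (interval 0.05 to 0.43, adjusted p = 0.0525). It passed without the second WT db-cAMP array (0.32, adjusted p = 0.0334), under quantile normalization (0.30, adjusted p = 0.0131), with equal medians (0.42, adjusted p = 0.00488), with probe sets averaged (0.34, adjusted p = 0.0292), and with an offset of 50 or the filter of 4 arrays (0.24 in both, adjusted p = 0.0478 and 0.048). Under vehicle KO minus WT was 0.03, and with probe sets averaged it was 0.41 and passed (adjusted p = 0.0293).

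Among the other Tob2 probe sets, 1417310_at gave 1140 and 846.6 in KO cells with db-cAMP, 699.6 and 953.3 in KO cells with vehicle, 550.8 and 518.8 in WT cells with db-cAMP, and 201.9 and 427.0 in WT cells with vehicle. It rose with db-cAMP in WT cells by 0.85 ± 0.27 (adjusted p = 0.0335), and KO exceeded WT by 0.87 ± 0.27 under db-cAMP (adjusted p = 0.0324) and 1.46 ± 0.27 under vehicle (adjusted p = 0.00396). The set 1417309_at gave 804.8 and 991.3 in KO cells with db-cAMP, 965.6 and 869.8 in KO cells with vehicle, 639.8 and 689.7 in WT cells with db-cAMP, and 585.0 and 600.2 in WT cells with vehicle. KO exceeded WT there by 0.42 ± 0.13 under db-cAMP (adjusted p = 0.0302) and 0.62 ± 0.13 under vehicle (adjusted p = 0.00794). The sets 1448666_s_at and 1431776_at passed no test.

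**Figure D4:**
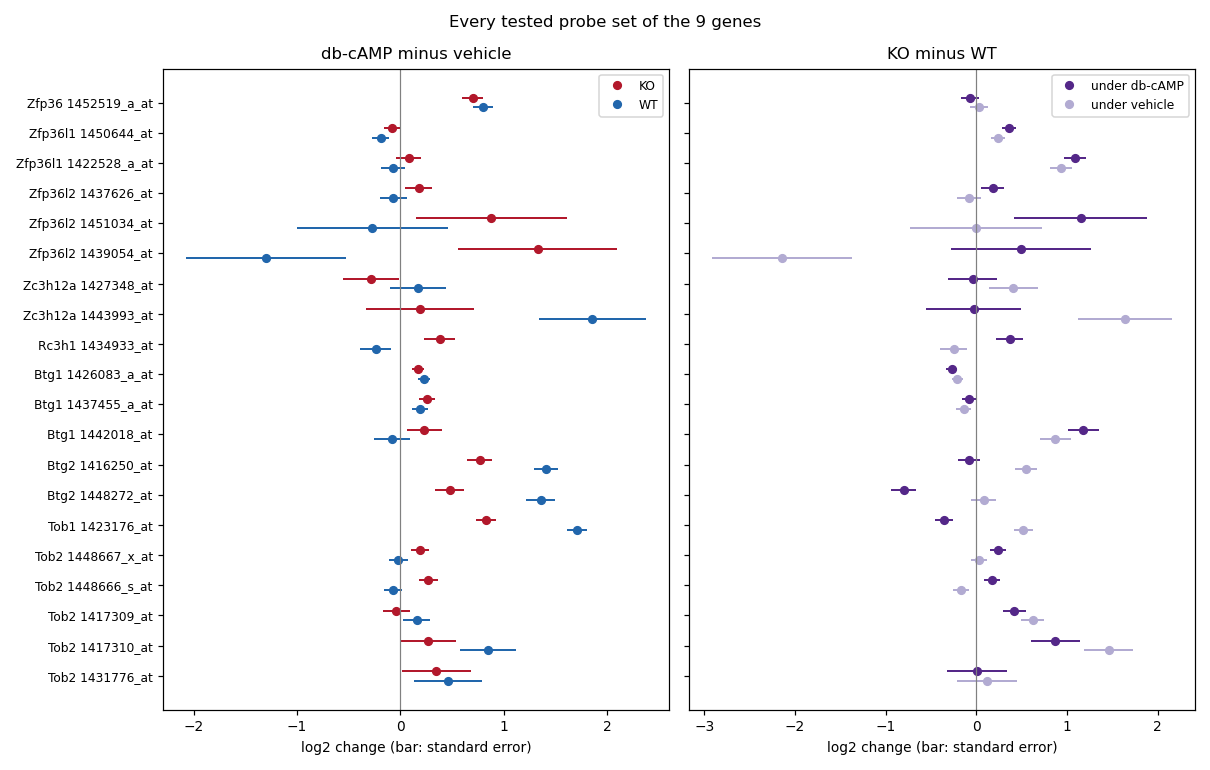
Log2 change with standard error of every tested probe set of the 9 genes, for db-cAMP minus vehicle in KO and WT cells (left) and KO minus WT under db-cAMP and vehicle (right). The 2 Btg2 sets both lie to the right with db-cAMP, whereas the Btg1 sets lie on both sides of 0 for KO minus WT.

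When each probe set was tested on its own, 5.58% of 21956 probe sets were called for db-cAMP in KO cells, 29.1% for db-cAMP in WT cells, 26.4% for KO against WT under db-cAMP, 10.9% under vehicle and 8.07% for the interaction. Of the 9 genes, by their main sets, KO against WT under db-cAMP gave 1 higher (Zfp36l1) and 2 lower (Btg1 and Tob1), where 15.9% of all genes tested were higher and 13.3% lower. Under vehicle 2 were higher (Btg2 and Tob1) and 0 lower, where 5.06% were higher and 5.78% lower. The interaction passed for 0 in the positive and 2 in the negative direction (Btg2 and Tob1), where 6.70% and 5.09% of all genes passed. At an unadjusted p under 0.05 limma counted 3 higher and 2 lower under db-cAMP, where 20.8% and 17.6% of all genes were. It counted 3 and 1 under vehicle (11.1% and 12.2% of all genes) and 1 and 2 for the interaction (12.8% and 10.9%). The median difference of the 9 was -0.04, 0.03 and -0.06 in these contrasts, against -0.005, -0.005 and 0.005 over all genes. Contrasts that share a group of arrays are not independent of each other.

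Scaling moved the balance of calls over all genes. The share of calls that were higher was 56.1% for db-cAMP in KO cells and 46.9% in WT cells, 54.6% for KO against WT under db-cAMP, 46.7% under vehicle and 56.8% for the interaction. With equal medians these were 47.5%, 29.2%, 76.8%, 64.4% and 73.2%, and with equal 75th percentiles 43.4%, 44.7%, 37.9%, 25.4% and 51.9%. Equal medians moved the median change of all genes to -0.156 for db-cAMP in WT cells, 0.167 for KO against WT under db-cAMP and 0.107 for the interaction, and equal 75th percentiles moved it to -0.125 for KO against WT under db-cAMP. Relative to these shifts, the rises of Tob1, Btg2 and Zfp36 with db-cAMP kept their direction and their call under the 3 other scalings tried.

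Across the 8 arrays, Btg2 and Tob1 had a Pearson correlation of log2 values of 0.98, Zfp36 and Tob1 of 0.94, Zfp36 and Btg2 of 0.92, and Zfp36l1 and Btg1 of -0.90. These values use the main probe sets. The Btg1 set 1442018_at had KO above WT, as Zfp36l1 did, and quantile normalization turned the sign of KO minus WT in the main Btg1 set. Of all other genes tested, the 2 most like Tob1 were Acadm (0.995) and Stat3 (0.9939), and those most like Btg2 were Zbtb22 (0.9945) and Tnip1 (0.9875). Arid4b (0.9878) and Sgms1 (0.9862) were most like Zfp36, and Plk4 (0.9909) and Jun (0.9904) most like Btg1. For Zfp36l1 they were Srsf4 (0.9868) and Itgal (0.9698), for Zfp36l2 Sapcd1 (0.9625) and Shb (0.9393), and for Zc3h12a Themis (0.8937) and Ppp3r1 (0.893). For Rc3h1 they were Chd8 (0.9373) and Iqgap2 (0.9289), and for Tob2 Bambi-ps1 (0.9657) and Npy (0.9403). All these points share the same 8 arrays and 4 groups, so the values describe patterns only.

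The machinery that these proteins act through was described from lists of genes. For comparison with each list below, db-cAMP calls among all 12091 genes tested were 16.4% higher and 18.6% lower for WT. The shares for KO were 4.70% higher and 3.68% lower. Calls were thus more frequent in WT cells across the whole array, so a larger WT count need not be particular to a list. Among the CCR4-NOT subunits and other deadenylases, 0 of 17 tested genes rose and 1 fell in db-cAMP-treated KO cells (median 0.05), whereas 3 rose and 5 fell in WT cells (median -0.17). With equal medians 0 rose and 9 fell in WT cells (median -0.34), and 0 rose and 0 fell in KO cells (median -0.02). The single KO fall was Noct, nocturnin, once classed as a deadenylase, at -0.40 in KO cells and -1.08 in WT cells (adjusted p = 0.0291 and 2.43e-06), and its KO call did not pass with equal medians (adjusted p = 0.0539). Of the catalytic subunits that BTG and TOB proteins bind, Cnot7 had changes of -0.08 in KO cells and -0.17 in WT cells, neither past the threshold (adjusted p = 0.646 and 0.104). Cnot8 had 0.00 in KO cells (adjusted p = 0.994) and rose by 0.34 in WT cells (adjusted p = 0.0328), and the difference between these effects did not pass (-0.34, adjusted p = 0.226). Cnot6 and Cnot6l, the other catalytic subunits, rose in WT cells by 0.33 and 0.39 (adjusted p = 0.003 and 0.00449). With equal medians Cnot6, Cnot6l and Cnot8 had 0.15, 0.22 and 0.17 in WT cells and did not pass (adjusted p = 0.331, 0.237 and 0.449), nor did Cnot8 with equal 75th percentiles (0.32, adjusted p = 0.0545). Cnot10, a scaffold subunit, fell by 0.76 in WT cells (adjusted p = 0.000207), and Parn, a poly(A)-specific ribonuclease, fell by 0.52 (adjusted p = 0.00895). Under each treatment Cnot6l was higher in KO than in WT cells, by 0.99 under db-cAMP (adjusted p = 3.62e-06) and 1.11 under vehicle (adjusted p = 5.04e-06).

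The list of the exosome, which degrades RNA from its 3-prime end, and of other 3-prime decay factors held the most falls of these lists in WT cells. Of 17 tested genes 0 rose and 4 fell in KO cells (median -0.19), whereas 1 rose and 12 fell in WT cells (median -0.52, against 0.013 over all genes). The 12 included Ttc37 (-0.52), Wdr61 (-0.22) and Pelo (-0.72), which are not exosome subunits. The rise was that of Hbs1l (0.56), likewise not a subunit. Exosc1, a cap subunit, fell in both, with changes of -0.44 in KO cells and -1.39 in WT cells (adjusted p = 0.00306 and 1.74e-08). Exosc2 likewise had -0.56 and -1.06 (adjusted p = 0.00675 and 6.21e-06), Exosc7 -0.41 and -0.97 (adjusted p = 0.013 and 1.79e-06), and the nuclear catalytic subunit Exosc10 -0.33 and -0.54 (adjusted p = 0.0303 and 0.0002). Exosc4 fell by 0.78 in WT cells (adjusted p = 1.22e-05) and had -0.27 in KO cells (adjusted p = 0.0879). The WT count of falls was 12 under the 3 other scalings too, with medians of -0.50 to -0.69, and the KO count was 3 to 5, Exosc10 losing its KO call with equal medians (-0.40, adjusted p = 0.0925).

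Poly(A)-binding proteins and their partners moved both ways, with 1 of 9 higher and 1 lower in KO cells (median -0.07) and 2 higher and 3 lower in WT cells (median -0.07). The WT counts were 1 higher and 5 lower both under quantile normalization (median -0.19) and with equal medians (median -0.24), and with equal medians 0 were higher and 0 lower in KO cells. Paip2, an inhibitor of poly(A)-binding protein, rose by 0.37 in KO cells and by 0.95 in WT cells (adjusted p = 0.00252 and 1.01e-07). Larp1, which binds growth-related transcripts, fell, with -0.30 and -1.07 (adjusted p = 0.0312 and 1.78e-07). Larp4 fell by 0.97 in WT cells (adjusted p = 7.73e-07) and had -0.06 in KO cells (adjusted p = 0.756), while Pabpc1 rose by 0.33 in WT cells (adjusted p = 0.014) and had 0.05 in KO cells (adjusted p = 0.849). With equal medians the KO changes of Paip2 (0.31, adjusted p = 0.0841) and Larp1 (-0.37, adjusted p = 0.0975) did not pass. The WT change of Pabpc1 did not pass with equal medians (0.16, adjusted p = 0.0818) or under quantile normalization (0.06, adjusted p = 0.322).

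Of 23 decapping and 5-prime decay genes, 2 rose and 0 fell in KO cells (median 0.04), whereas 4 rose and 3 fell in WT cells (median -0.08). With equal medians 2 were higher and 7 lower in WT cells (median -0.25), and 1 was higher and 0 lower in KO cells (median -0.03). Over all genes the balance in WT cells moved the same way in that setting, with 1186 of 12090 higher and 2881 lower (median -0.156). Pnrc1, a partner of the decapping enzyme, rose by 0.82 and by 1.25 (adjusted p = 1.04e-05 and 2.03e-08), and the helicase Ddx6 by 0.41 and by 0.44 (adjusted p = 0.00513 and 0.000557). With equal medians Ddx6 passed in neither genotype (0.34 and 0.27, adjusted p = 0.0893 and 0.069). Nudt16, a decapping enzyme, rose by 1.20 in WT cells (adjusted p = 2.69e-05) and had 0.40 in KO cells (adjusted p = 0.132). Eif4enif1, which holds eIF4E on repressed transcripts, fell by 0.68 in WT cells (adjusted p = 1.85e-05), and Lsm2 fell by 0.52 (adjusted p = 0.025). In nonsense-mediated decay 0 of 9 rose and 1 fell in KO cells (median -0.03), whereas 0 rose and 3 fell in WT cells (median -0.30), among them the release factors Etf1 (-0.34 in KO cells, -0.31 in WT cells, adjusted p = 0.0197 and 0.0086) and Gspt1 (-0.41 in WT cells, adjusted p = 0.000566). The KO call of Etf1 did not pass with equal medians (-0.41, adjusted p = 0.0518), where 0 fell in KO cells and 4 in WT cells, and 2 fell in WT cells under quantile normalization.

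In microRNA silencing 1 of 10 rose and 0 fell in KO cells (median 0.16), whereas 2 rose and 1 fell in WT cells (median -0.04). Tnrc6b, a GW182 protein, rose by 1.10 in KO cells and by 0.94 in WT cells (adjusted p = 0.00124 and 0.000703), Ago3 rose by 0.94 in WT cells (adjusted p = 0.0125) and Ago1 fell by 0.29 in WT cells (adjusted p = 0.0359). A list of 10 other RNA-binding proteins, among them binders of AU-rich elements, had 1 rise and 0 falls in KO cells (median 0.03). In WT cells it had 2 rises and 1 fall (median -0.02). Elavl1, Hnrnpd, Khsrp, Tia1 and Tial1, which bind AU-rich elements, passed with db-cAMP in neither genotype in the main setting. The rise in both genotypes was that of Arid5a, which protects transcripts from regnase-1, by 0.87 and by 1.77 (adjusted p = 0.00103 and 2.52e-07). In WT cells Pcbp2 rose by 0.38 (adjusted p = 0.006) and Celf1 fell by 0.21 (adjusted p = 0.0365). Under quantile normalization the WT calls of Pcbp2 (0.19, adjusted p = 0.062) and Ago1 (-0.25, adjusted p = 0.0658) did not pass. The list of 10 other RNA-binding proteins had 2 higher and 3 lower in WT cells with equal medians (median -0.20), and 1 higher and 2 lower under quantile normalization.

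Transcripts that have been described as targets of ZFP36 proteins, regnase or roquin moved both ways. Of 26 tested, 5 rose and 8 fell in KO cells (median -0.08), whereas 8 rose and 9 fell in WT cells (median 0.01). The cytokine transcripts Il2, Tnf and Ifng fell in both genotypes. Il2 had changes of -1.45 in KO cells and -3.59 in WT cells (adjusted p = 0.000237 and 6.62e-09), Tnf -2.06 and -2.66 (adjusted p = 0.00041 and 6.03e-06), and Ifng -1.19 and -1.61 (adjusted p = 5.55e-05 and 3.6e-07). Myc, a driver of T cell growth, fell too, with -0.52 and -1.98 (adjusted p = 0.000421 and 3.55e-10), and Cd274, which encodes PD-L1, had -1.27 and -0.32 (adjusted p = 2.62e-06 and 0.02). Dusp1, a phosphatase of MAP kinases, rose by 0.89 and by 1.67 (adjusted p = 7.79e-05 and 2.57e-08). The 5 rises in KO cells were those of Dusp1, Icos, Fos, Ctla4 and Bcl6, which all rose in WT cells too. Of the targets named above for regnase-1, Icos rose by 0.49 and by 0.82 (adjusted p = 0.00209 and 4.08e-06). Rel had 0.16 in KO cells (adjusted p = 0.545) and rose by 0.81 in WT cells (adjusted p = 0.000126). Il6 passed in neither (0.63 and 1.31, adjusted p = 0.624 and 0.0979). Array signals measure RNA levels, so synthesis and decay of these transcripts cannot be told apart. At an unadjusted p under 0.05 by limma, 10.6% of all genes were higher and 9.92% lower in KO cells. In KO cells limma counted 4 deadenylase genes higher and 1 lower, and 5 decapping genes higher and 1 lower. The exosome and 3-prime decay list had 2 higher and 7 lower. Nonsense-mediated decay and the list of other RNA-binding proteins each had 1 higher and 1 lower there, and microRNA silencing 1 higher and 0 lower. In WT cells nonsense-mediated decay had 0 higher and 3 lower, where 20.5% and 22.2% of all genes were. No gene of these lists that was called with db-cAMP turned sign under the 3 other scalings, though calls were lost. Besides those given, the WT calls of Upf2 and Nfkbia did not pass under quantile normalization (limma adjusted p = 0.0713 and 0.0597). With equal medians those of Pnrc2 and Nfkbia did not pass (adjusted p = 0.0851 and 0.126). In each of these settings 7 described targets were higher and 9 lower in WT cells.

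**Figure D5:**
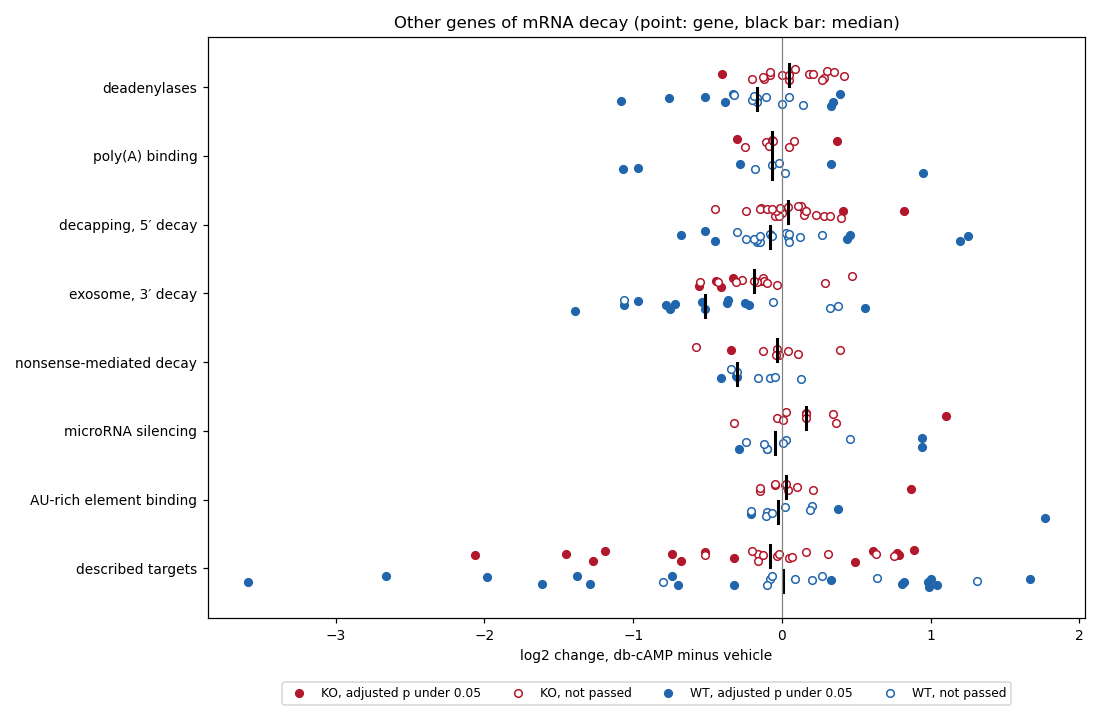
Log2 change with db-cAMP of the genes of 8 lists, with KO cells (red) above WT cells (blue), filled points at an adjusted p under 0.05 and a black bar at each median. The row marked AU-rich element binding also holds other RNA-binding proteins. The exosome genes lie furthest to the left as a list, with medians of -0.19 in KO cells and -0.52 in WT cells, and Il2 is the point at -3.59.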

How the data were processed

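The authors deposited linear signal intensity per probe set, made with MAS5 per the submitters' processing notes. Its version and options are not given in the sources used. RNA was amplified from the 3-prime end and labelled with biotin, per the labels. The middle of each column has the same mean of 500, so the deposited intensity values had been scaled per array, and a change in total RNA per cell is not measured. Precision is limited by the number of arrays.

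Probe sets with 1 symbol in the platform annotation (34945 of 45101) gave 18193 genes, each by its probe set of highest mean log2 value. Values were taken as log2(value + 5.48), the offset being the 10th percentile of all values, which understates changes of dim genes. Genes above their array's median on at least 2 arrays were kept (12091, with 6102 not tested). Limma 3.58.1 in R 4.3.3 was fitted over all 8 arrays with 1 term per group and an intensity trend, with Benjamini-Hochberg adjustment over all genes tested, and checked on simulated data. Figures used Python 3.11.15 and matplotlib 3.10.9. RefSeq promoters came from a table of build GRCm38.p6. A further promoter motif is not reported here.

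The 9 genes and all gene lists were chosen with earlier results of these data known. The named genes were all 9 members, up to 4 called genes of each list with the largest change with db-cAMP in WT and in KO cells, close relatives and deadenylase partners (Rc3h2, Zc3h12d, Btg3, Cnot6, Cnot7 and Cnot8) whatever their values, 2 genes most like each member, and Ifngr1, Crem, Pde4d and Gbp2 as a check of labels. Btg3 and some other genes of the lists are not analysed here. Any other list genes named were chosen after their values were seen. The alternatives were 13 other settings and leaving out each of the 8 arrays.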

Additional observations from a re-analysis of the deposited data

Results flagged for a closer look

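The 9 members and the 38 list genes picked by the naming rule above make 47 genes. Of these, 18 had a db-cAMP effect in KO cells that differed from that in WT cells by limma's interaction term (KO effect less WT effect, log2 scale). Adjustment was over all 12091 genes tested, of which 11.8% passed. Most of the 38 were picked for a large db-cAMP change in 1 genotype, so the 2 shares are not comparable. Groups of 2 arrays are too small to check single arrays for standing apart.

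Among genes that rose with db-cAMP in WT cells, the interaction was -0.88 ± 0.13 for Tob1 (adjusted p = 0.000948) and -0.63 ± 0.16 for Btg2 (adjusted p = 0.0225). It was -0.90 ± 0.19 for Arid5a (adjusted p = 0.00735), -0.78 ± 0.14 for Dusp1 (adjusted p = 0.00275) and -0.79 ± 0.21 for Nudt16 (adjusted p = 0.0267). Paip2 had -0.57 ± 0.09 (adjusted p = 0.00129) and Pnrc1 had -0.43 ± 0.10 (adjusted p = 0.0142).

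Among genes that fell with db-cAMP in WT cells, the interaction was 2.15 ± 0.26 for Il2 (adjusted p = 0.000176) and 1.46 ± 0.10 for Myc (adjusted p = 3.64e-06). The exosome genes Exosc1, Exosc7 and Exosc4 had 0.94 ± 0.11 (adjusted p = 0.000151), 0.56 ± 0.13 (adjusted p = 0.011) and 0.51 ± 0.13 (adjusted p = 0.0186). Larp4 had 0.91 ± 0.12 (adjusted p = 0.000269) and Larp1 had 0.77 ± 0.11 (adjusted p = 0.000583). Eif4enif1 had 0.79 ± 0.12 (adjusted p = 0.000642), Noct 0.68 ± 0.15 (adjusted p = 0.00887) and Cnot10 0.67 ± 0.17 (adjusted p = 0.0196).

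Cd274 went the other way among the falling genes, with an interaction of -0.94 ± 0.14 (adjusted p = 0.000672), with changes of -1.27 in KO cells and -0.32 in WT cells.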

How the results depend on the processing

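Of the settings tried on the 9 genes' calls, 256 results kept direction and call, 33 lost the call and 3 turned sign. Of results not called, 597 stayed so, 22 gained a call and 25 turned sign. Over all genes, db-cAMP in KO cells gave 1013 calls, against 608 with equal medians, 497 with probe sets averaged, 188 without the intensity trend and 446 to 1089 leaving out 1 array. KO against WT under vehicle gave 1311, against 846, 794 and 251 in those settings, 2401 over every probe set and 617 to 1391 leaving out 1 array. The interaction gave 1425, against 947, 709 and 261, and 891 to 1336. Every probe set gave 6385 calls for db-cAMP in WT cells, against 4233, and 5790 for KO against WT under db-cAMP, against 3529.

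Of the 9 genes, without the intensity trend 1 was called for db-cAMP in KO cells (3 in the main setting), 0 for KO against WT under vehicle (2), 0 under db-cAMP (3) and 0 for the interaction (2). With equal medians the interaction was called for 1. Leaving out 1 array gave 1 to 2 calls under vehicle, 1 to 4 under db-cAMP and 1 to 2 for the interaction.

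Signs turned as follows, and the cause was not tested. For KO minus WT under vehicle, Zfp36 had -0.05 and Btg1 0.02 under quantile normalization, Zfp36 and Tob2 -0.06 with equal 75th percentiles, and Btg1 0.17 with probe sets averaged. Under db-cAMP, Btg1 had 0.04 under quantile normalization, Zfp36 0.10, Zc3h12a 0.13 and Btg2 0.09 with equal medians, and Btg1 0.28 and Tob1 0.49 with probe sets averaged. For the interaction, Btg1 had 0.02, 0.04 and 0.10 under quantile normalization, equal medians and averaged sets, and Tob2 -0.07 with averaged sets. For db-cAMP in WT cells, Tob2 had 0.28 with averaged sets. Leaving out 1 array, Zc3h12a ran from -0.60 to 0.05 with db-cAMP in KO cells and from -0.37 to 0.28 for KO minus WT under db-cAMP. Zfp36l2 ran from -0.07 to 0.43 with db-cAMP in KO cells, from -0.19 to 0.04 in WT cells and from -0.33 to 0.18 for KO minus WT under vehicle. Tob2 ran from -0.10 to 0.06 with db-cAMP in WT cells and from -0.05 to 0.11 for KO minus WT under vehicle. Zfp36 ran from -0.20 to 0.05 for KO minus WT under db-cAMP and from -0.22 to 0.02 for the interaction.

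Same-numbered arrays did not deviate together (correlations of deviations -0.02 to 0.021), so the numbers are not taken to pair them. With the replicate number as a block, calls over all genes were 935, 4184, 3485, 1250 and 1373 for db-cAMP in KO and WT cells, KO against WT under db-cAMP and vehicle, and the interaction. The calls of the 9 genes were 3, 4, 3, 2 and 2, as without the block. Where an array was left out, the lone array of its group is assumed to vary like the others. The probe sets below the array median on some arrays, 1451034_at and 1439054_at of Zfp36l2 and 1443993_at of Zc3h12a, have standard errors of 0.52 or more, and 1440844_at of Tob1 lay below it on all 8.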
